A study of Mus musculus with 16 samples.

Results

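Expression in control dorsal skin was described from 9 single-colour Illumina bead arrays, chosen by their titles out of the 16 arrays of the series. The remaining arrays carry RNA of K14-cre; Gab1fl mutants and were not used here. The control mice were 15 days old and of a mixed C57/BL6;129Ola background, and the labels give their genotype only as control, without saying which floxed or Cre alleles they carried, how many animals were used or whether animals were pooled. Each array is labelled dorsal skin, whereas the design text of the series speaks of cells sorted for integrin alpha 6, and from these texts sorted cells and whole skin cannot be told apart. Total RNA was amplified to biotin-labelled cRNA, and the arrays lie on 2 slides.

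Mouse back skin at this age bears hair follicles near the end of the first growth phase. Its epidermis has a dividing basal layer, marked by the keratins Krt5 and Krt14, above which cells switch to Krt1 and Krt10 and then build the cornified envelope. The follicle adds an outer root sheath, an inner root sheath, the hair shaft and the matrix that produces the last 2, around a dermal papilla of specialised fibroblasts. Sebaceous glands, melanocytes, vessels, nerves, immune cells and the collagen-rich dermis complete the tissue.

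The 9 arrays fell into 3 groups of closely alike arrays. Across 12782 probes detected on every control array, background-corrected log2 values correlated at r = 0.996 to 0.997 between arrays 1, 4 and 7, between arrays 2, 5 and 8, and between arrays 3, 6 and 9 (9 pairs). These groups are called sets 1, 2 and 3, and each was counted as 1 sample, so errors are SD over n = 3 sets. Arrays of sets 1 and 3 correlated at 0.959 to 0.960, and those of set 2 at 0.984 to 0.986 with either. The labels do not say how the RNA of the sets is related, and an SD over the sets need not be the spread between animals. Set 2 lay near the midpoint for most genes over 2-fold apart between sets 1 and 3, as detailed at the end. Fewer than 3 independent samples may therefore stand behind each SD, which was not tested. In limma, with the set as a block, 14 of the 12782 probes differed between the slides at an adjusted p below 0.05 (0.11%, 2 higher and 12 lower on slide 2; 1336 at an unadjusted p below 0.05), and none did without the set as a block or without an intensity trend. Without array 2 or without array 3 the count was 1.

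Levels are log2 of the authors' normalized signal, which has a median of 203.8 to 203.9 on each array, and are given per gene symbol by the probe with the highest mean. Of 16593 symbols, 8977 (54.1%) were detected on all 9 arrays, that is with a detection p below 0.05 against negative control beads, and 5531 (33.3%) on none. The dimmest genes inside this limit were Gkn1, Stoml1 and Zfp606 at 7.53 to 7.56, and the brightest outside it was Alas2 at 8.70, detected on 8 arrays. Rank and percentile refer to brightness, and brightness is not transcript abundance, because probes hybridise with unequal strength. Eef1a1, an elongation factor that all cells use, was detected on 6 arrays at 7.52, and the ferritin chain Ftl1 on 1 array at 7.31, while its partner chain Fth1 stood at 15.80. A dim probe is therefore no evidence that a transcript was missing. In bulk RNA, fewer cells of a type and less RNA per cell cannot be told apart.

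Ribosomal protein genes and keratins led the ranking. Among the 40 brightest genes, 21 encode cytoplasmic ribosomal proteins, 3 are keratins and 2 are subunits of the mitochondrial ATP synthase. Rplp1, of the ribosomal stalk, was the brightest at 16.07 ± 0.01 (SD, n = 3 sets), with 16.04 on its lowest and 16.08 on its highest array. Rpl41 and the metal-binding metallothionein Mt1 came next, at 16.04 and 16.03. The basal keratin Krt14 ranked 4 of 8977, at 16.02 ± 0.03. The top is compressed: the 40 brightest genes span 0.66 on the log2 scale and the 100 brightest 1.24, and the normalized table has the same maximum, 69267, on every array, so order within the leading group carries little information.

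Ribosomal protein genes were bright as a family. Of 64 named on the array, 58 were detected on all 9 arrays (54.1% of all symbols were), 34 were among the 100 brightest (0.603% of all symbols are) and the median percentile was 99.5. Subunits of the respiratory chain and ATP synthase followed, with 69 of 77 detected and a median percentile of 95.7. Atp5b, the catalytic subunit of the synthase, stood at 15.82 ± 0.02 and ranked 16. Connexin Gja1, the main gap junction protein of skin, ranked 28 at 15.60 ± 0.02, and the membrane protein Emp1 ranked 24 at 15.67 ± 0.10. The 3 sets overlapped for Gja1.

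The remaining genes among the 40 brightest have varied roles. Anxa2, an annexin that binds membranes, stood at 15.79 ± 0.11, the ferritin heavy chain Fth1 at 15.80 ± 0.04 and the alpha tubulin Tuba1b at 15.56 ± 0.06. Gpx1, a glutathione peroxidase, reached 15.47 ± 0.11. Zfp36l1, which promotes mRNA decay, and Itm2b, a membrane protein, stood at 15.77 and 15.79 by their brightest probes, while other probes of these genes read as low as 9.34 and 7.03. Of the S100 family of calcium-binding proteins 10 of 14 were detected on all 9 arrays, with a median percentile of 80.4. S100a11 ranked 33 at 15.53 ± 0.23, from 15.18 to 15.85 over the arrays, S100a6 stood at 12.66 ± 0.09 and S100a10 at 12.38 ± 0.11. The alarmin S100a8 lay at 9.88 ± 0.35, and its partner S100a9 was detected on 5 arrays at 7.48. In the list of stress keratins and alarmins 4 of 8 genes were detected on all 9 arrays, against 54.1% of all symbols. This list had a median percentile of 62.4 ± 9.2, and its brightest member, Krt17, ranked 31.

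Mt1 is shown with its start region because it was the brightest gene outside the ribosomal protein and keratin families. Metallothioneins bind zinc and copper, and their genes are known to be switched on through metal response elements. The window runs from 250 bases before to 50 bases after the annotated start (RefSeq, GRCm38.p6, chr8:94178839-94179138, plus strand), and capitals mark matches to the core letters TGCACNC or TGCGCNC, searched on both strands.
Mt1: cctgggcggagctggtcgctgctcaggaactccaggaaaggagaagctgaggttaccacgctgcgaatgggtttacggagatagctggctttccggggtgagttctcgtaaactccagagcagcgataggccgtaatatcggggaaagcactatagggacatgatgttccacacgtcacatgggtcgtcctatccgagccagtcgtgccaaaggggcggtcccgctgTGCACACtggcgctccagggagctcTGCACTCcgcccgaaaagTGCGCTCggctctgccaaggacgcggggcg
The window holds 3 matches, all on the plus strand, and not all of them lie ahead of the annotated start. At least 1 match occurred in 25.6% of all 27025 promoter windows and in 35.6% of 7254 windows of detected genes. Whether these matches act on Mt1 was not tested. Signal of Mt1 on the 9 arrays ran from 16.00 through a median of 16.03 to 16.08, at the ceiling of the table.

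**Figure D1:**
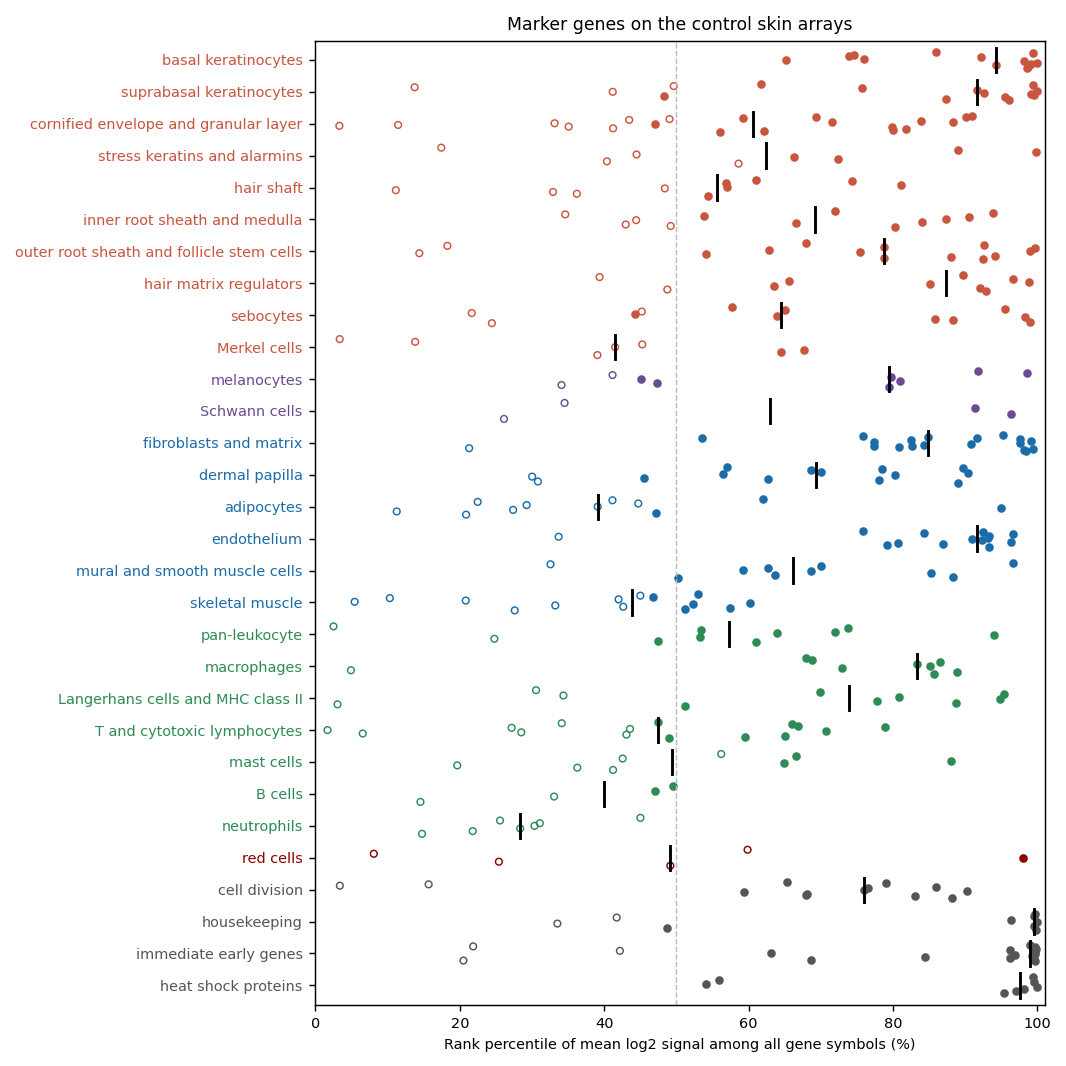
Each point is a marker gene on the control arrays, placed by the rank percentile of its mean log2 signal among all 16593 gene symbols (x axis, %), for the cell type and tissue lists named on the y axis. Filled points were detected on all 9 arrays, open points on fewer, black bars are list medians, and colours separate epithelial (red), neural crest (purple), dermal (blue), immune (green), blood (dark red) and general (grey) lists. Basal keratinocyte genes have a median of 94.3 and endothelial genes of 91.7, whereas adipocyte, skeletal muscle and neutrophil genes lie mostly below the middle.

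Basal keratinocyte genes were bright throughout. All 13 named on the array were detected on all 9, with a median percentile of 94.3 ± 0.6 (SD, n = 3 sets) and 6 of them among the 500 brightest genes (3.01% of all symbols are). Krt14 gave 15.97 on its lowest array, a median of 16.02 and 16.07 on its highest. Its partner Krt5 stood at 14.56 ± 0.08, from 14.37 to 14.72 over the arrays. Col17a1, the transmembrane collagen of hemidesmosomes, reached 14.85 ± 0.11, and Trp63, the transcription factor that maintains stratified epithelia, 14.07 ± 0.10. These 4 genes differed by at most 1.13-fold between sets 1 and 3.

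Integrin genes spread more widely than the basal keratins. Itgb4, the integrin chain of hemidesmosomes, ranked 314 at 13.82 ± 0.06. Itga6, which encodes integrin alpha 6 and pairs with Itgb4 in basal cells, ranked 3984 at 10.26 ± 0.19, with a lowest array of 10.01, a median of 10.33 and a highest of 10.47. Itga3 stood at 12.22 ± 0.12 and Itgb1 at 9.20 ± 0.13. Each of these genes was detected on all 9 arrays.

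Suprabasal genes were similarly bright but varied more between the sets. Of 15 named on the array, 12 were detected on all 9, with a median percentile of 91.6 ± 5.7. Krt10 ranked 18, with 15.44 on its lowest array, 15.92 as the median and 15.97 on its highest. All arrays of set 1 lay below those of sets 2 and 3, whose means were 15.95 and 15.94 against 15.53. Krt1, its usual partner, stood at 12.09 ± 0.79, with set means of 11.21, 12.34 and 12.73, and Krt77, another keratin of suprabasal cells, at 12.27 ± 1.06. Krtdap and Dmkn, secreted proteins of differentiating keratinocytes, reached 14.42 ± 0.70 and 14.89 ± 0.62. Lgals7, a galectin of stratified epithelia, was steady at 14.93 ± 0.05.

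Genes of the granular layer and cornified envelope ranked lower, and no member was among the 500 brightest. Of 20 named on the array 13 were detected on all 9 and 3 on none, with a median percentile of 60.7 ± 4.5. Asprv1, a protease that processes filaggrin, led at 11.99 ± 1.37, followed by Casp14 at 11.88 ± 0.72 and Klk7, a protease of corneocyte shedding, at 11.62 ± 0.93. Lor encodes loricrin, the main protein of the envelope, and gave set means of 9.38, 10.72 and 11.75. No array of one set overlapped with another set for Lor. The filaggrin relatives Flg2 and Hrnr were detected on 6 and 5 arrays. In the family of small proline-rich and late cornified envelope genes, 5 of 27 were detected on all 9 arrays and 15 on none.

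Keratins as a family ranged over the whole scale. Of 47 named on the array 30 were detected on all 9, and the median percentile was 56.8 ± 1.2, but 6 were among the 500 brightest. After Krt14 and Krt10 these were Krt17 at 15.55 ± 0.15, Krt15 at 15.26 ± 0.14, Krt5, and Krt79 at 14.37 ± 0.50. Krt17 and Krt15 are keratins of the outer root sheath, and Krt79 marks the infundibulum of the follicle. Krt16, a keratin of the outer root sheath and of stressed epidermis, stood at 11.70 and Krt6b at 9.29, while Krt6a was detected on 6 arrays at 7.62.

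Promoter windows of several skin gene groups held TATAAA more often, and a GC box less often, than those of detected genes as a whole. These groups include listed genes that were not detected on all 9 arrays, so the comparison with detected genes is not like for like. The letters TATAAA, searched on both strands, occurred in 16 of 32 keratin windows and 8 of 19 windows of cornified envelope genes. They occurred in 9.09% of 55 ribosomal protein windows, 7.83% of 7254 windows of detected genes and 14.2% of all 27025 windows. GGGCGG, a GC box, occurred in 6.25% of keratin windows, 61.8% of ribosomal protein windows and 64.8% of windows of detected genes. Its share of all 27025 windows was lower, at 35.9%. S100 windows held TATAAA in 33.3% and GGGCGG in 16.7% of 12 cases, and fibroblast and matrix windows held each in 27.3% of 11. Cornified envelope windows held GGGCGG in 21.1% of cases. These shares describe letters within windows, were not tested, and differ in number of windows because not every symbol has one in the table.

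Krt10 and Lor are shown because they stand for the early and the late step of epidermal differentiation. Both windows run from 250 bases before to 50 after the annotated start (RefSeq, GRCm38.p6), at chr11:99389315-99389614 for Krt10 and chr3:92083093-92083392 for Lor, both on the minus strand, and are written 5′ to 3′ along the gene. Capitals mark TATAAA.
Krt10: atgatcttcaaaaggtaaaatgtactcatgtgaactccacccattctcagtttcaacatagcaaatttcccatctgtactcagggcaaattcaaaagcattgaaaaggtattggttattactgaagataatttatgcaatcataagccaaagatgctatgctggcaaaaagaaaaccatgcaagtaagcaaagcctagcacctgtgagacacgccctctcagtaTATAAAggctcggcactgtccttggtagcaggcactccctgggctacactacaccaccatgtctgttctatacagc
Lor: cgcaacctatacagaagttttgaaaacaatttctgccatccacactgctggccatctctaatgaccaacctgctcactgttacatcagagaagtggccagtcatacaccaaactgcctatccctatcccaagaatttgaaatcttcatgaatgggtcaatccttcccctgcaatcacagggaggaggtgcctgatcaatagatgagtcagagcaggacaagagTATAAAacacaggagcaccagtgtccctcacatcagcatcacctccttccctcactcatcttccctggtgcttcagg
Each window holds 1 match, on the strand of the gene and just ahead of the start. Krt10 differed by 1.33-fold between sets 3 and 1, and Lor by 5.19-fold.

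Each hair follicle list had members detected on all 9 arrays, in unequal shares. Outer root sheath and stem cell genes had a median percentile of 78.8 ± 3.4, with 12 of 14 detected on all 9 arrays. Lrig1, a stem cell marker of the upper follicle, stood at 12.61 ± 0.22, Lgr5, of the lower bulge and hair germ, at 10.20 ± 0.30 and Cd34, of the bulge, at 9.43 ± 0.40. Fgf18 and Lgr6 were detected on 0 arrays. Hair matrix regulators had a median percentile of 87.3 ± 7.4, with 8 of 10 detected. Hr, the hairless corepressor, led this list at 14.26 ± 0.18 by the brighter of its 2 probes, the other standing at 10.90, and Foxq1, a regulator of the hair medulla, reached 13.20 ± 0.58.

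Differentiated follicle products were dimmer. Inner root sheath and medulla genes had 8 of 12 members detected on all 9 arrays and a median percentile of 69.2 ± 6.3. The sheath keratin Krt27 stood at 11.92 ± 0.84 and Krt71 at 11.49 ± 0.74. Of the 20 hair shaft genes listed, 10 are named on the array, and 6 of these were detected on all 9 arrays (60.0%, against 54.1% of all symbols). The median percentile of this list was 55.6 ± 2.4, close to the middle of all symbols. Krt35, a keratin of the hair cortex and cuticle, gave set means of 12.45, 10.72 and 9.08, and no arrays of different sets overlapped. Krt33a, a cortex keratin, followed another order, at 10.79, 9.28 and 10.18, as did Krt34 at 7.96, 7.91 and 9.44. Keratin-associated proteins, which cross-link the hair keratins, were almost all dim: of 30 named on the array, Krtap13-1 alone was detected on all 9, at 8.66 ± 0.36, and 22 were detected on none.

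Sebocyte genes were led by a lipid enzyme. Scd1, the stearoyl-CoA desaturase, ranked 170 at 14.39 ± 0.36 and Mgst1 288 at 13.90 ± 0.29. Cidea, a lipid droplet protein, reached 12.92 ± 0.70 and Mc5r, the melanocortin receptor of the gland, 9.08 ± 0.20. Of 12 sebocyte genes named on the array, 9 were detected on all 9 arrays. Merkel cell genes were dim, with 2 of 7 detected, Krt8 at 9.41 and Piezo2 at 9.13. Taking all epithelial lists, 87 of 121 genes (71.9%, against 54.1% of all symbols) were detected on all 9 arrays, at a median percentile of 71.6 ± 1.2.

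Pigment cells were represented by their enzymes and melanosome proteins. Dct, the dopachrome tautomerase, stood at 12.13 ± 1.03, Pmel at 10.74 ± 0.70 and Tyrp1 at 10.58 ± 0.40, whereas Tyr was detected on 1 array. Gpnmb ranked 247 at 14.06 ± 1.16 and is also known from macrophages. Its 4 probes ranged down to 8.16. Of the Schwann cell list, 4 of 9 genes are named on the array, and Pmp22 and Mbp were detected on all 9, at 13.14 ± 0.48 and 12.05 ± 1.43.

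Dermal lists split sharply by cell type. Fibroblast and matrix genes were detected on all 9 arrays in 18 of 19 cases, with a median percentile of 84.8 ± 1.8 and 6 genes among the 500 brightest. Sparc, a matrix glycoprotein, ranked 108 at 14.76 ± 0.36, and the proteoglycan Dcn 155 at 14.48 ± 0.15. Col1a1, a chain of the main dermal collagen, ranked 782 at 12.85 ± 0.18, from 12.55 to 13.07 over the arrays. Its partner Col1a2 stood at 10.25 ± 0.52, and Col3a1 at 11.16 ± 0.13 by the brighter of 2 probes, the other at 8.83. Postn was detected on 0 arrays. The brightest collagens were those of basement membranes and the epidermal junction: Col17a1, then Col4a1 at 14.69 ± 0.15 and Col18a1 at 14.15.

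Endothelial genes had the highest median percentile of the dermal lists, 91.7 ± 3.0, with 13 of 14 detected on all 9 arrays. In set 1 alone their median of 87.7 was level with the 87.8 of fibroblast and matrix genes. No endothelial gene was among the 500 brightest, against 6 fibroblast and matrix genes. The junction protein Esam reached 13.20 ± 0.57, the fenestra protein Plvap 13.11 ± 0.62 and Pecam1 12.23 ± 0.51. Lyve1 and Prox1, of lymphatic vessels, stood at 12.00 and 10.72, and Kdr was detected on 1 array. Ccl21a, a chemokine of lymphatic endothelium, ranked 39 at 15.42 ± 0.16; near-identical Ccl21 copies may share its probe. Among mural and smooth muscle genes 9 of 10 were detected, led by Acta2 at 13.24 ± 0.16.

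Adipocyte and skeletal muscle lists had medians below the middle of all symbols, at percentiles of 39.1 ± 1.6 and 43.8 ± 2.3. Of 11 adipocyte genes named on the array 3 were detected on all 9 (27.3%, against 54.1% of all symbols). Another 5 were detected on none, as were 33.3% of all symbols. Adipoq, the hormone that defines adipocytes, was detected on 5 arrays, with 7.31 on its lowest, a median of 7.50 and 7.68 on its highest. Fabp4 and Plin1 were detected on 0 arrays. Lpl, a lipase that other cells make too, stood highest of the list at 12.78 ± 0.29. Of 14 muscle genes 6 (42.9%) were detected on all 9 arrays and 5 on none, and the highest, Myl1, stood at 8.73 ± 0.10. Ckm, the muscle creatine kinase, was detected on 0 arrays. Over all dermal lists, 61 of 82 genes (74.4%) were detected on all 9 arrays, at a median percentile of 70.1 ± 3.3.

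Dermal papilla genes were detected on all 9 arrays in 12 of 14 cases, with a median percentile of 69.4 ± 9.0. Corin, a protease specific to the papilla within skin, stood at 11.79 ± 0.89, and the Wnt inhibitors Wif1 and Notum at 11.69 ± 1.16 and 10.67 ± 1.72. Hey1, a Notch target, was the brightest at 11.91 ± 0.37. Notum gave 8.70 on its lowest array, a median of 11.11 and 12.17 on its highest, and the 3 sets did not overlap.

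Pooled over their lists, immune genes had a lower median percentile than epithelial and dermal genes, although single immune lists ranked above some epithelial and dermal lists. Of 63 genes named on the array 36 (57.1%, against 54.1% of all symbols) were detected on all 9, the median percentile was 51.2 ± 2.5, and none was among the 500 brightest. Macrophage and antigen presentation lists stood above this median. The list of Langerhans cell and MHC class II genes had 7 of 10 members detected and a median percentile of 73.9 ± 5.5, with Cd74, the invariant chain of MHC class II, at 12.86 ± 0.71 and H2-Ab1 at 12.78 ± 0.61. Cd207, the langerin that defines Langerhans cells, stood at 9.64 ± 0.54 and was detected on all 9 arrays. Macrophage genes had the highest median percentile of the immune lists, 83.3 ± 10.6, with 8 of 9 detected. Lyz2, a lysozyme, reached 11.67 ± 1.11, the complement chain C1qb 11.36 ± 1.21 and the mannose receptor Mrc1 11.27 ± 1.15.

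Signal chains of the T cell receptor were detected on every array, whereas the coreceptor probes did not pass detection on any. Cd3g stood at 10.54 ± 0.82, Cd3e at 9.33 ± 0.79 and Cd3d at 9.26 ± 0.65, each detected on all 9 arrays, while Cd4 and Cd8a were detected on 0. Cd4 and Cd8a encode the coreceptors of conventional T cells, and as background the gamma delta T cells resident in mouse epidermis lack both. Of 15 T and cytotoxic lymphocyte genes named on the array, 8 were detected on all 9 (53.3%, against 54.1% of all symbols). The median percentile of this list was 47.5 ± 4.5. Which T cells were present was not tested. Ctsw and Nkg7, of cytotoxic lymphocytes, stood at 9.71 ± 0.71 and 9.18, while Gzma and Gzmb were detected on 0 arrays. Of 8 mast cell genes named on the array, 3 were detected on all 9 (37.5%, against 54.1% of all symbols), 4 on some and 1 on none. Among the 3 were the proteases Cpa3, at 9.32 ± 1.24, and Mcpt4, at 9.17 ± 1.16. B cell genes Cd79a and Cd79b lay at 7.89 and 7.74, and no neutrophil gene was detected on all 9 arrays. Ptprc, the defining pan-leukocyte gene, was detected on 0 arrays, whereas Laptm5, of lysosomes in blood cells, stood at 12.56 ± 0.52.

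Immediate early genes stood near the top of the ranking. This list and the heat shock list were chosen after the values were seen. Of 19 immediate early genes named on the array 16 were detected on all 9, 8 were among the 100 brightest and the median percentile was 98.9 ± 0.1. The transcription factor Egr1 ranked 35 at 15.50 ± 0.09, and Zfp36, an mRNA decay factor, 47 at 15.34 ± 0.16. Fos, of the AP-1 complex, ranked 54 at 15.25 ± 0.03, with 15.17 on its lowest array and 15.35 on its highest. Sets overlapped for Fos. Of the heat shock list all 8 genes were detected, with the chaperone Hspa8 at 15.80 ± 0.05 and the inducible Hspa1a at 15.02 ± 0.53.

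Transcripts of cell division, of X inactivation and of the Y chromosome were detected on every array. Of 13 cell division genes 11 were detected on all 9, with a median percentile of 76.0 ± 3.7, among them the replication helicase subunit Mcm5 at 11.90 ± 0.50 and the topoisomerase Top2a at 10.96 ± 0.50. Eif2s3y, on the Y chromosome, gave 10.39 on its lowest array, a median of 10.62 and 10.94 on its highest. Xist, expressed from the inactive X chromosome of female cells, gave 9.99, 10.39 and 10.67. Kdm5d and Uty, also Y-linked, were detected on all 9 arrays at 8.03 and 7.85. Gab1, the gene deleted in the other arm of the study, ranked 894 in these controls at 12.71 ± 0.01, from 12.63 to 12.81.

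**Figure D2:**
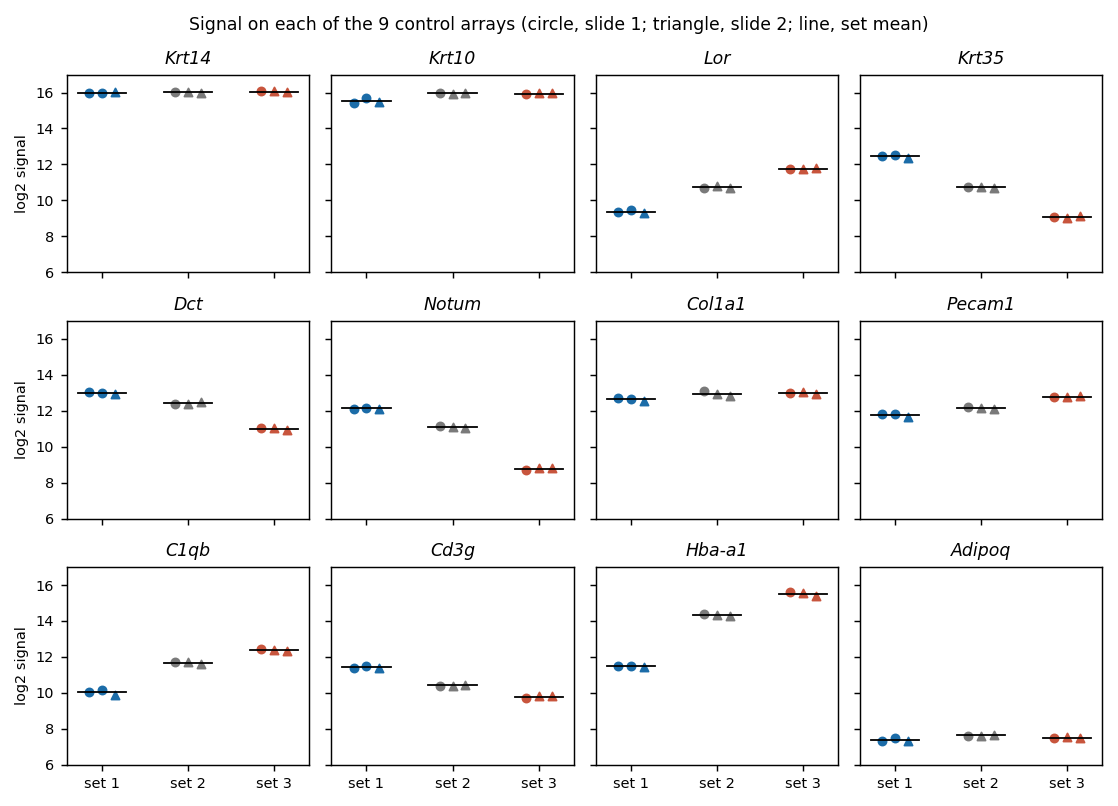
Log2 signal (y axis) of 12 genes on each of the 9 control arrays, grouped by set on the x axis. Circles are arrays of slide 1, triangles those of slide 2, and lines are set means; arrays of a set lie close together, Krt14 is level at 16.02, Hba-a1 climbs from 11.47 in set 1 to 15.52 in set 3, Krt35 and Notum run the other way, and Adipoq stays near 7.50 in all.

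Several lists differed between the sets with most members in 1 direction. Over the 8977 detected genes the median difference between set 3 and set 1 was -0.03 on the log2 scale. In set 3, 266 genes (2.96%) were over 2-fold higher than in set 1, and 176 (1.96%) were over 2-fold lower. The median SD of a gene was 0.0748 within sets and 0.123 between them. Because the sets were recognised from these same values, their differences are described without a test. Dim genes are understated on this scale, since no background was subtracted.

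Higher in set 3 were genes of epidermal differentiation, vessels, macrophages and mast cells. All 8 detected macrophage genes were over 2-fold higher in set 3 than in set 1 (2.96% of all detected genes were), with a median difference of 2.15, and C1qb had set means of 10.03, 11.68 and 12.38. Of 13 detected cornified envelope genes 9 were over 2-fold higher, with a median of 1.38, and Asprv1 differed by 6.34-fold. The 13 detected endothelial genes all lay higher in set 3, 8 of them over 2-fold, with Ly6c1 at 3.91-fold. Of the 3 detected mast cell genes all were over 2-fold higher, and Cpa3 differed by 5.06-fold. Of the 7 detected Langerhans cell and MHC class II genes 6 were over 2-fold higher, with a median of 1.18. Mbp, of myelin, differed by 6.87-fold.

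Higher in set 1 were genes of the hair matrix and dermal papilla, of melanocytes and of T cells. All 8 detected hair matrix regulators were lower in set 3, 5 of them over 2-fold (1.96% of all detected genes were), with a median difference of -1.18. The matrix homeobox genes Dlx3 and Msx2 were 4.43-fold and 4.19-fold higher in set 1. Inner root sheath and medulla genes had a median of -1.30, with 5 of 8 over 2-fold higher in set 1. Dermal papilla genes had a median difference of -1.54, with 7 of 12 over 2-fold higher in set 1, and Notum, at set means of 12.12, 11.11 and 8.77, differed by 10.2-fold. Counting smaller differences, 10 of the 12 were higher in set 1 and 2 in set 3, among the latter Hey1, the brightest of the list. Melanocyte genes had a median of -0.96, with Dct 3.99-fold higher in set 1. Of the 7 detected melanocyte genes 6 were higher in set 1, 3 of them over 2-fold, and 1 was higher in set 3. Of the 8 detected T cell genes all lay higher in set 1, 6 over 2-fold, with Cd3g at set means of 11.42, 10.41 and 9.78. All 11 cell division genes were higher in set 1 as well, none over 2-fold, with a median of -0.71.

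Hair shaft genes had a median difference of -1.01, with 3 of 6 detected genes over 2-fold higher in set 1 and 1 in set 3. Sebocyte genes had a median of 0.68 with 2 of 9 over 2-fold higher in set 3, and pan-leukocyte genes 0.54 with 2 of 8.

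Medians of basal keratinocyte, ribosomal protein, fibroblast and immediate early genes lay close to 0. Basal keratinocyte genes had a median difference of 0.11 with none of 13 over 2-fold in either direction. Small differences still leaned to 1 side, with 10 of them higher in set 3 and 3 in set 1. Ribosomal protein genes had a median of -0.14 with none of 58 over 2-fold. Of these 49 were higher in set 1 and 9 in set 3, against 4828 and 4149 of all 8977 detected genes. Fibroblast genes had a median of 0.08 but were divided, 2 over 2-fold higher in set 3 and 3 in set 1. Pdgfra and Fbln1 were 3.58-fold and 2.74-fold higher in set 1, and Col1a2 was 2.05-fold higher in set 3. Immediate early genes had a median of 0.10 and none of 16 passed 2-fold.

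**Figure D3:**
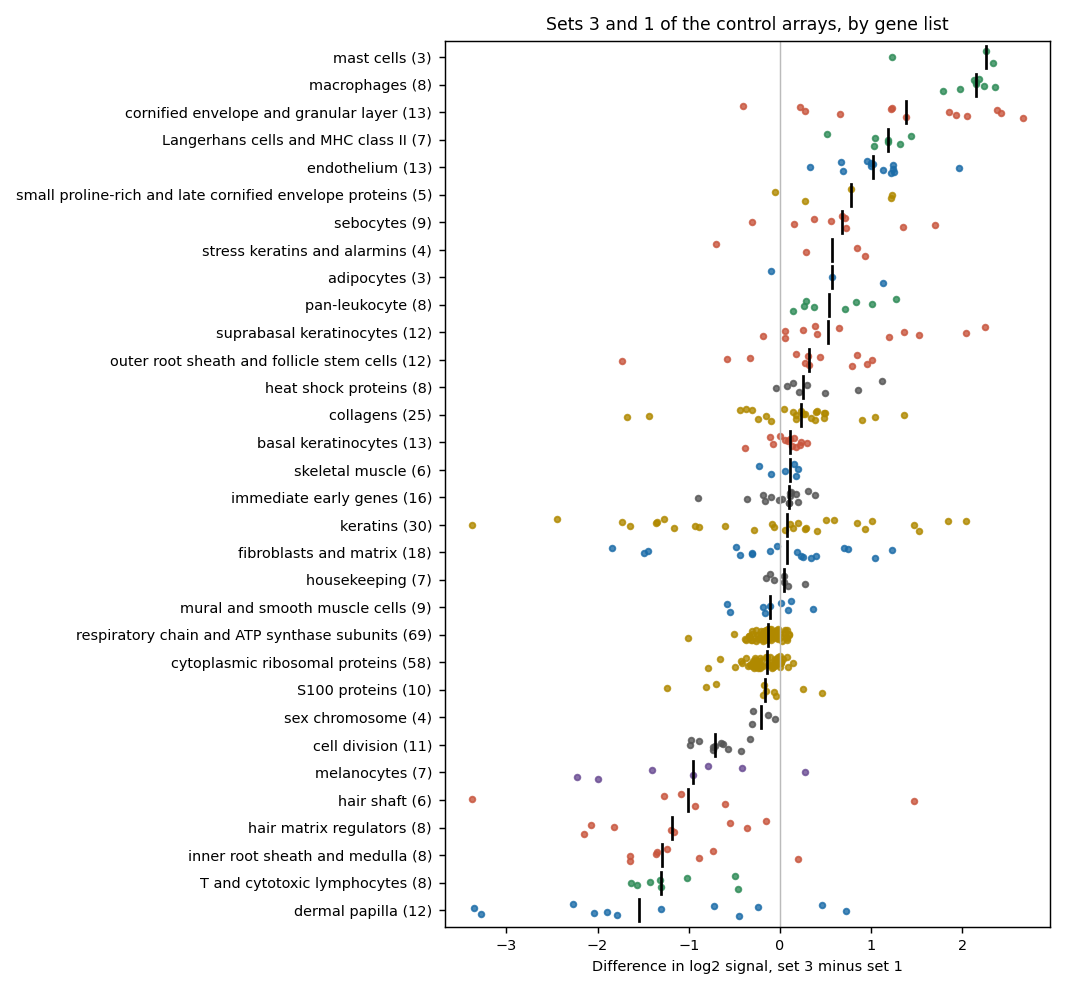
Each point is a gene detected on all 9 control arrays, placed by its difference in log2 signal between set 3 and set 1 (x axis), for each list or gene family with at least 3 such genes (number in brackets on the y axis). Black bars are medians and colours are those of the percentile plot, with gene families in ochre; mast cell and macrophage genes lie to the right at medians of 2.26 and 2.15, dermal papilla genes to the left at -1.54, and ribosomal protein genes close to 0.

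The 10 genes of largest SD between the sets included a blood gene, papilla genes and a hair keratin. Hba-a1, an alpha chain of haemoglobin, had the largest at 2.08, with 11.46 on its lowest array, a median of 14.33 and 15.59 on its highest. It was 16.5-fold higher in set 3 than in set 1. Alas2, the heme synthesis enzyme of red cells, moved alongside, at set means of 7.56, 8.80 and 9.74, and was detected on 8 arrays. The part of blood RNA in the other differences was not tested. Cyp2g1, a cytochrome P450, Serpina3b, a serine protease inhibitor, and Elovl4, which makes the very long fatty acids of barrier lipids, were 13.2-fold, 10.6-fold and 7.22-fold higher in set 3.

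The other members of this group were higher in set 1. The ion cotransporter Slc12a1 was 15.8-fold higher there by the brightest of its 4 probes, of which the dimmest stood at 7.23. The agouti gene a, a paracrine signal from the dermal papilla to pigment cells, was 12.6-fold higher, with set means of 12.65, 11.42 and 9.00. Krt35, Notum, Crabp1, which binds retinoic acid in the papilla, and Lamc3, a laminin chain, were 10.4-fold, 10.2-fold, 9.70-fold and 7.46-fold higher.

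Set 2 lay between the other sets for nearly every gene over 2-fold apart between sets 1 and 3. Genes were chosen on the arrays of slide 1, where 448 detected genes were over 2-fold apart between sets 1 and 3, and placed on the arrays of slide 2 on the linear signal scale, with 0 for the level in set 1 and 1 for that in set 3. Set 2 fell between the 2 for 445 of the 448 (99.3%), at a median position of 0.52 and an interquartile range of 0.42 to 0.60. Choosing on slide 2 and placing on slide 1 gave 0.52 over 453 genes. Genes higher in set 3 had a median position of 0.50 and genes higher in set 1 of 0.56. At 4-fold the interquartile range was 0.47 to 0.58 over 75 genes. Over all detected genes, set 2 differed from the mean of sets 1 and 3 by a median of 0.0639 on the log2 scale, and from set 1 and set 3 by 0.123 and 0.128. The 2-fold choice leaves out genes for which sets 1 and 3 lie closer and set 2 is the extreme. Krt33a, for which set 2 was the lowest, is such a gene, so the share between does not cover every gene that differed.

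**Figure D4:**
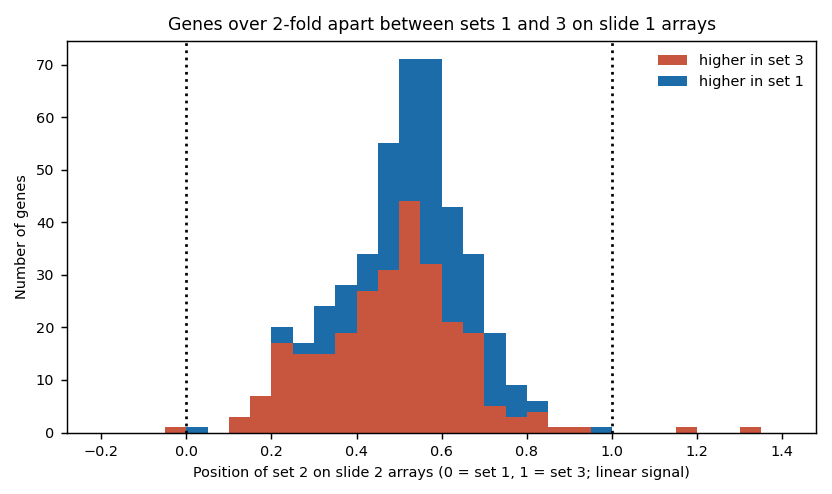
Number of genes (y axis) by the position of set 2 between set 1 (0) and set 3 (1) in linear signal on slide 2 arrays (x axis), for the 448 genes over 2-fold apart between those sets on slide 1 arrays. Genes higher in set 3 are red and genes higher in set 1 blue, stacked; the bulk lies around the median of 0.52 and 3 genes fall outside the dotted lines.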

How the data were processed

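Illumina bead array signals of 9 control samples were analysed. Per the file headers, the deposited raw table holds an average probe intensity and a detection p-value per array; the submitters' processing notes name GenomeStudio. The deposited normalized table holds the authors' intensity on a linear scale; how it was normalized is not stated by the texts used here. Each of its columns ranked probes as the raw column did (Spearman 1.0), and its values differed from a quantile normalization of the 9 arrays by a median of 0.815%. No genome build is named for the probes.

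Of 25697 probes, 23978 have 1 gene symbol in the platform table, 0 several and 1719 none; 23962 matched a gene identifier of the RefSeq table (GRCm38.p6), which changed 0 symbols. The normalized intensity was taken to log2, arrays of a set were averaged, and the probe of highest mean stood for its symbol. For 3344 detected symbols with several probes, the median gap between the brightest and the dimmest was 1.75. Sets join arrays whose neqc values (offset 16) correlate above 0.99. Slides were compared with limma 3.58.1 in R 4.3.3 (lmFit, eBayes with an intensity trend, Benjamini-Hochberg at 0.05), checked on simulated data; its p-values measure the spread between arrays, which may be technical. The number of arrays and sets limits the precision. Named genes are the 40 brightest, the 10 of largest SD between sets, up to 3 leading genes per list, listed genes not detected on all arrays, and Itga6, Krt14, Gab1 and sex chromosome genes; other list members that serve as examples were picked with values in view. Members and lists were chosen with earlier results of these data known. Alternatives covered normalization, probe choice, detection limit, slides, sets and single arrays.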

Additional observations from a re-analysis of the deposited data

Results flagged for a closer look

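Among 176 values checked over the 9 control arrays (named genes and list medians), 3 had an array set apart from the remaining 8. The gap was such that Dixon's test at 95% marks it, and for independent arrays chance alone marks about 1 in 20. The arrays fall into sets of closely alike arrays, so this rate need not hold. Where sets differ, the range over the arrays widens and a single array is seldom marked. Rpl23 read 15.83 on array 9, against 15.94 to 16.00 elsewhere. Rpl41 read 16.00 on array 8, against 16.03 to 16.07. Rps2 read 15.98 on array 2, against 15.79 to 15.86. All 3 are ribosomal protein genes near the ceiling of the table, and the gaps are small on the log2 scale.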

How the results depend on the processing

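No paired analysis was possible because the control group alone was used, so no study groups were compared; arrays of a set served as a block in the slide comparison. The median percentile of epithelial genes moved from 71.6 to 70.3 without set 2 and 69.4 without set 3. With the median over a symbol's probes the dermal and immune medians were 74.6 and 55.0, and among genes detected on all 9 arrays alone 64.6 and 43.3. Leaving out single arrays gave 71.4 to 71.8 for epithelial, 70.0 to 70.2 for dermal and 51.0 to 51.4 for immune genes, 8990 to 9024 detected genes and 1 to 17 probes that differed between slides. That slide count was 0 with no set block and 0 with no intensity trend. Raw signal and neqc values moved no list median by more than the SD between sets, while the median over probes moved 18 of 38. Ranking the genes detected on all 9 arrays alone moved 32 of 37, by -34.8 to 47.3 percentile points, the widest range of the alternatives tried. Leaving out set 1 moved 4 list medians and leaving out set 3 moved 3. The remaining limit is that brightness compares probes, not transcripts, and that dim probes do not show absence.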
